A study of Mus musculus with 4 samples.

Results

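Peaks of N6-methyladenosine (m6A) whose centre lay in the last exon of a gene were examined in mouse liver with and without Mettl3 in hepatocytes. A peak was a member when the first row listing it with an overlapped gene labelled its centre as last exon; peaks whose centre the table labels as 3' UTR were not members. The rule used position alone and no read count. It took 2632 of 12815 distinct peaks (20.5%), in 2429 genes. Of these genes 2266 had 1 such peak, 163 had 2 or more and 2 had 5. In 282 peaks the table listed more than 1 overlapped gene, so their reads cannot be assigned to 1 of them without strand.

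All mice were C57BL/6, chow-fed and 8 weeks of age, and carried loxP-flanked (flox/flox) Mettl3 alleles. The control group, here flox, had the Mettl3flox/flox genotype, and the hepatocyte knockout group, HKO, carried Alb-Cre in addition. An antibody against m6A was used to precipitate fragmented poly(A)+ RNA, and precipitated RNA (IP) and RNA before precipitation (input) were sequenced. There was 1 library for each genotype and fraction, 4 in all, each from the pooled RNA of several mice. Alb-Cre acts in hepatocytes, so Kupffer, endothelial, stellate and other cells of HKO liver keep Mettl3. Since Mettl3 itself had no peak in the table used here, these data offer no check of its deletion. The libraries held between 14972301 and 18365473 reads. Member peaks took 14.7% of IP reads and 6.29% of input reads in flox, and 11.2% and 6.33% in HKO. Last exon peaks of the liver genes Apoa1, Ttr and Ahsg were among the best covered, with 54684, 20241 and 20360 input reads in flox and 67692, 19171 and 23838 in HKO. No difference below has a replicate check. Intervals of single peaks cover the counting error of reads, which may include PCR copies, and intervals of shares and medians cover the sampling of peaks.

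METTL3 is the catalytic subunit of the writer complex that methylates adenosines of nascent messenger RNA, most often within the sequence GGACT (with U for T in RNA) or the wider DRACH pattern. In DRACH the letter D stands for any base but C, R for a purine and H for any base but G, around the central A and C. The mark is known to collect around stop codons and in long last exons, and to be sparse close to splice junctions. Reader proteins that bind it affect the decay, translation and processing of the transcript.

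The site nearest the peak middle is shown for the 10 well-covered last exon peaks with the lowest HKO to flox enrichment ratio, since these carry the largest losses. Each line gives 29 bases of the sense strand of the GRCm38 transcript, with GGACT in capitals, or, where the peak holds no GGACT, the nearest DRACH match in capitals.
D17H6S53E: tcaggaacacggAGACCccccggggctgc
Stam: ggctctgctataGGACTtgatgttcctct
Gimap9: aaaaggctgaagAGACTgtatttatgtat
Selenoi: ttgtggaattgtGGACTttctaactccca
C1galt1: cattgcactgaaGGACTcttgcctttcta
Gprc5c: atttgaaacagtGGACTgagtcgggacct
Dynll1: atccaaaaacaaGGACTgcatccaaattc
Mul1: gcttttgaacctGGACCtggtgtgggccg
Arhgef3: ggacagcgagtcGGACTgcagtatggaca
Vps18: tacaagcaggccAGACTtgaggaactgca

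GGACT lay under 6 of these 10 peaks. In Stam, at chr2:14146468-14146496 on the plus strand, the first G of the motif is the last base of the stop codon. The motif of C1galt1, at chr6:7871279-7871307, lies 39 nt past the end of the coding sequence, and that of Dynll1, at chr5:115298635-115298663 on the minus strand, 50 nt past it. The Arhgef3 site, at chr14:27401868-27401896, lies in the coding sequence, 94 nt before its end. The same windows follow for the 6 peaks that were at least 4-fold enriched in flox and differed least between the genotypes, for comparison.
Ifit2: tgagaggggagtGGACTctgcaaaccagg
Ifnar2: cccaggatctatGGACTgaagatgggtca
Bmp2: ccctttgtatgtGGACTtcagtgatgtgg
Arhgap30: tgagaaaggagaTGACAccccagtagact
Malat1: tcaaagctactaGGACTgaagtaaaaagt
Znrd1as: agctaattctctGGACTactggcttgcaa

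GGACT was present under 5 of these 6 peaks, so its presence did not separate the 2 sets. The sets were not matched for width, which was 722 to 1909 nt here and 276 to 748 nt in the falls. Longer peaks hold more sites, and those shown for Ifit2, Malat1 and Znrd1as lay at 342, 234 and -278 nt from the peak middle. The sites of Bmp2, at chr2:133561421-133561449 on the plus strand, and Ifnar2, at chr16:91404323-91404351, lay in the coding part of the last exon. The Malat1 site, at chr19:5801547-5801575 on the minus strand, lay in a noncoding RNA.

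The first question was how far m6A enrichment at the last exon depended on hepatocyte Mettl3. Enrichment is the depth-scaled read level (RPM) of the IP divided by that of the input of the same genotype, and its change is the log2 ratio of HKO to flox. Over the 2632 members the median enrichment went from 3.53-fold in flox to 2.05-fold in HKO, and their median log2 change was -0.69 (95% interval -0.74 to -0.62). A peak was counted as lower or higher by a rule of size, an enrichment at least 2-fold lower or higher in HKO. By this rule 995 members (37.8%, exact 95% interval 35.9 to 39.7) were lower, where 24.3% of all 12815 peaks were. A larger fall was therefore not particular to members: of peaks labelled 3' UTR 40.7% were lower, with a median log2 change of -0.77. Only 73 members (2.77%, 2.18 to 3.47) were higher, where 6.25% of all peaks and 3.40% of 3' UTR peaks were. Every peak in the table has an enrichment above 1 in each genotype, so the 541 members with flox enrichment under 2 could not be counted as lower. Of the 2091 others, 47.6% were lower, and of all peaks with that flox enrichment 34.7%.

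The calls of the peak caller leaned the same way. In all, 1340 members (50.9%) were called in both genotypes, 799 (30.4%, 28.6 to 32.2) in flox alone and 493 (18.7%, 17.3 to 20.3) in HKO alone, where 22.5% of all peaks were called in flox alone and 31.3% in HKO alone. The members called in flox alone had a median log2 change of -1.34 and those called in HKO alone of 0.50. Calls and changes come from the same reads.

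Enrichment is a ratio, and both of its parts moved in the lower members. Their median log2 change was -1.07 in IP RPM and 0.52 in input RPM. IP RPM was below that of flox in 917 of these 995 peaks (92.2%), and input RPM was at least 2-fold higher in 254 (25.5%). In the 1564 members that changed less than 2-fold, the medians were 0.11 in IP RPM and 0.10 in input RPM. Among the 1551 members whose input differed less than 1.5-fold, a group chosen after the data were examined, 31.5% were lower and the median log2 change was -0.55. Input is bulk liver RNA, in which more cells of a type and more RNA per cell cannot be told apart.

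The last exon label covered several kinds of transcript. The centre lay in the last exon of some annotated transcript of the gene in 2630 members, and on the transcript chosen for placing the peak the middle lay in the last exon in 2567. Coding transcripts with several exons held 1933 members, and coding transcripts of 1 exon, whose only exon is also the last, held 92. Pseudogenes held 361, nearly all of them processed copies without introns, and noncoding RNA genes held 167. A further 73 lay on noncoding transcripts of coding genes.

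These kinds differed in level and in change. On coding transcripts with several exons, median enrichment went from 3.92-fold in flox to 1.94-fold in HKO, the median log2 change was -0.91 (-0.96 to -0.86), 45.8% were lower and 1.5% higher. The 92 peaks of single-exon coding genes, which have no splice junction, had 5.41-fold and 2.56-fold enrichment and a median log2 change of -1.17 (-1.29 to -0.80), and 55.4% were lower. Noncoding RNA genes had a smaller median change of -0.36, with 23.4% lower. Pseudogenes went the other way, from 1.79-fold in flox to 2.42-fold in HKO, and the median log2 change was 0.47 (0.43 to 0.50). Of the pseudogene peaks 3.60% were lower, 8.03% higher and 49.3% called in HKO alone. Only 162 of the 361 had a flox enrichment of 2 or more, and 8.02% of these were lower. Reads of processed pseudogenes cannot be told apart from those of their parent genes where the sequences match, so these values are uncertain.

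**Figure D1:**
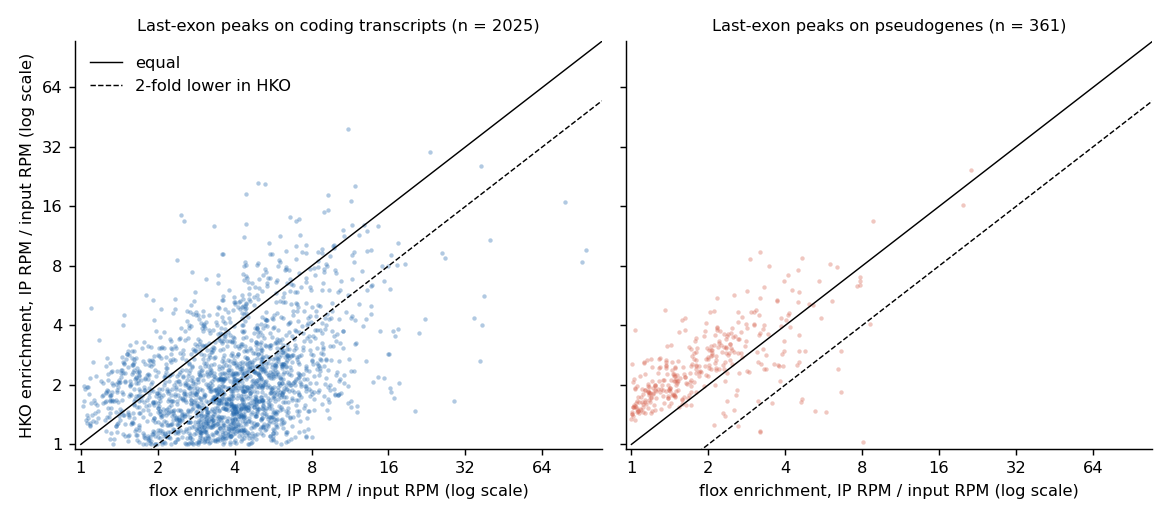
Enrichment in flox (x axis) and HKO (y axis), IP RPM over input RPM on log scales, for each last exon peak on coding transcripts and on pseudogenes; each point is 1 peak, the solid line marks equal enrichment and the dashed line 2-fold lower enrichment in HKO. The cloud of coding peaks lies mostly below the solid line (median log2 change -0.92), and that of pseudogene peaks mostly above it (0.47).

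The 4 mitochondrial members, in mt-Nd4, mt-Nd5 and mt-Cytb, belong to genes transcribed outside the nucleus, where the METTL3 complex does not act. The mt-Cytb peak had 65685 IP and 49207 input reads in flox and 59473 IP and 41392 input reads in HKO. Its enrichment was 1.12-fold and 1.53-fold, a log2 change of 0.45 (0.42 to 0.47). The changes of the other 3, from 0.29 to 0.52, had the same sign. The levels of mt-Nd4 were 1.24-fold and 1.79-fold, those of one mt-Nd5 peak 1.40-fold and 1.97-fold, and those of the other mt-Nd5 peak were higher, 2.70-fold and 3.30-fold.

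The second question was where in the last exon the peaks lay. On nuclear coding transcripts, 2025 members were placed, 1065 with their middle in the coding sequence (52.6%), 931 in the 3' UTR (46.0%) and 29 in a 5' UTR. The median position was 22 nt before the end of the coding sequence (quartiles -304 and 95 nt). The middle lay within 200 nt of the stop codon in 1171 (57.8%, 55.6 to 60.0), and the stop codon itself lay under 1332 peaks (65.8%). Peaks labelled 3' UTR lay further along, with a median of 231.5 nt past the coding sequence, and 44.5% covered the stop codon. Only 45 members (2.22%) lay more than 500 nt past it, against 33.0% of the 3' UTR peaks.

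The change varied little with distance from the stop codon. The median log2 change was -0.82 (-0.97 to -0.70) in the 178 members more than 1000 nt before the end of the coding sequence, -0.93 (-1.04 to -0.82) in the 454 within 200 nt before it, -0.90 (-0.96 to -0.82) in the 716 within 200 nt after it and -0.84 (-1.23 to -0.55) in the 45 beyond 500 nt. The intervals of these 4 groups overlap. Enrichment in flox was 4.30-fold in the coding sequence group as a whole and 3.59-fold in the 3' UTR group, and in HKO it was 2.11-fold and 1.81-fold.

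Distance from the last splice junction went with larger differences. The 66 peaks centred within 100 nt after the junction had low enrichment in both genotypes, 1.74-fold and 2.01-fold, and a median log2 change of 0.27 (0.08 to 0.42). From 100 to 150 nt the median was -0.36 (-0.68 to -0.18), from 150 to 200 nt -0.76, from 200 to 300 nt -0.92 and from 300 to 400 nt -1.14 (-1.27 to -0.95). Beyond that it stayed near this level, at -1.15 from 400 to 800 nt and -0.99 beyond 1600 nt. Flox enrichment rose over the same distances from 1.74-fold to 4.86-fold between 800 and 1600 nt, while HKO enrichment stayed between 1.84-fold and 2.51-fold.

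Peaks near the junction were also narrow, with a median width of 206.5 nt within 100 nt and 648 nt between 400 and 800 nt. With the width held up to 250 nt, the median log2 change was 0.01 within 150 nt of the junction, -0.52 from 150 to 300 nt and -0.94 beyond. Among peaks of 250 to 400 nt it was -0.31, -0.86 and -1.07. Many of the nearest peaks had too little flox enrichment to be counted as lower, and with those under 2-fold left out the narrow peaks still ran from -0.71 over -0.84 to -1.11. The length of the last exon followed the same order. With the peaks split into 4 equal groups by it, in the shortest, of 31 to 1030 nt, the median log2 change was -0.46 and 28.7% were lower, and in the longest, of 3207 nt and more, it was -1.11 and 55.1% were lower.

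**Figure D2:**
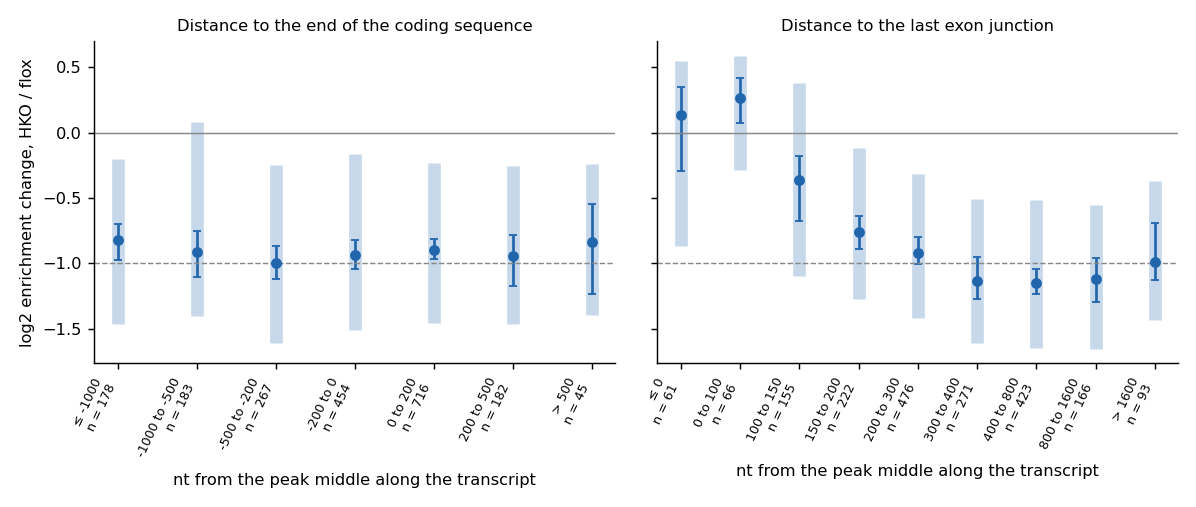
Log2 enrichment change, HKO over flox (y axis), of last exon peaks on coding transcripts by distance of the peak middle, in nt, from the end of the coding sequence (left) and, for transcripts with several exons, from the last exon junction (right). Points are medians with 95% intervals, pale bars the quartiles, and n the number of peaks; medians lie between -0.82 and -1.0 at every distance from the coding end, and run from 0.27 within 100 nt of the junction to -1.15 at 400 to 800 nt.

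The third question was how the motif related to these peaks. GGACT, searched on the sense strand of the exonic part, lay under 47.8% (45.9 to 49.7) of the 2630 placed members and under 34.6% of all other placed peaks. Peaks labelled 3' UTR, which are among those others, held it more often than members, in 51.7% (49.9 to 53.6). Part of these differences goes with length. Among peaks with up to 250 exonic nt, 27.2% (24.0 to 30.6) of members and 19.4% (18.3 to 20.6) of other peaks held it, from 250 to 400 nt 42.6% and 42.6%, and above 400 nt 66.3% and 62.6%. In the same length ranges, 34.7%, 48.9% and 64.6% of 3' UTR peaks held GGACT. DRACH is met so often by its letters alone that 99.1% of members held a match.

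In 1865 peaks lying wholly in the last exon of a coding transcript, GGACT occurred 1.82 times per kb under the peak and 0.814 times per kb in the rest of the same last exons outside any peak, a ratio of 2.24. For the peaks counted as lower the ratio was 2.40, and for those that changed less than 2-fold it was 2.1. The peaks were therefore richer in GGACT than the sequence beside them in both groups.

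More sites went with a larger change. For coding members with no GGACT the median log2 change was -0.76 (-0.82 to -0.69), those with 1 site -0.93 (-1.02 to -0.85), those with 2 -1.16 (-1.25 to -1.03) and those with 3 or more -1.28 (-1.43 to -1.15). HKO enrichment was alike in the 4 groups, between 1.86-fold and 2.03-fold, while flox enrichment rose from 3.50-fold to 4.82-fold. Longer peaks hold more sites, and in each of 3 length ranges the order was kept. The intervals of neighbouring groups overlap except those of none and 1 site in the shortest range. Among peaks over 400 nt the medians were -1.05 with no site, -1.09 with 1 and -1.22 with 2 or more. In the shortest range, flox enrichment was 2 or more in 58.4% of peaks with no site and 73.5% with 1. With weaker peaks left out, the medians there were -0.83 with no site, -0.80 with 1 and -0.91 with 2 or more. The first pair was then no longer in order. In the longer ranges the order was kept with weaker peaks left out, at -1.11, -1.15 and -1.24 above 400 nt.

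**Figure D3:**
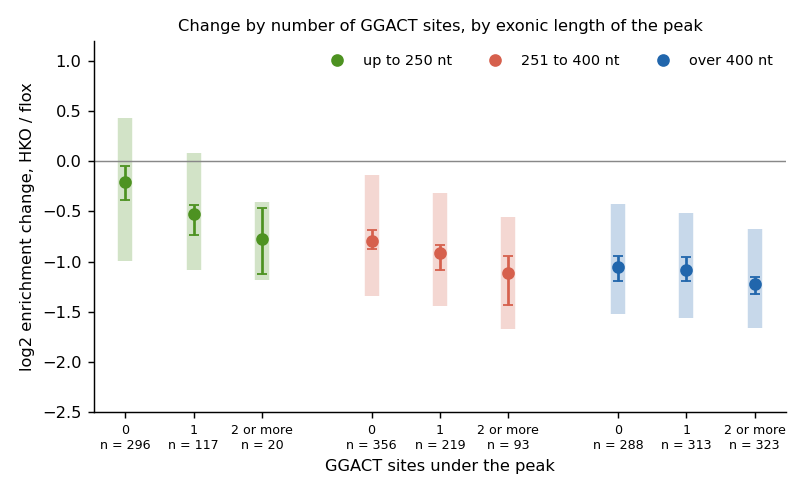
Log2 enrichment change, HKO over flox (y axis), of last exon peaks on coding transcripts by the number of GGACT sites under the peak (x axis), in 3 ranges of exonic length. Points are medians with 95% intervals, pale bars the quartiles. Peaks of any flox enrichment are included. The median is lower with more sites in each range, from -0.20 to -0.78 up to 250 nt and from -1.05 to -1.22 above 400 nt.

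Within a gene, the last exon peak could be set beside a peak elsewhere. In 405 genes that also had a first exon or 5' UTR peak, the log2 change was lower at the last exon in 342 (84.4%), and the median difference was -0.98 (-1.11 to -0.88). Flox enrichment was 3.40-fold at the last exon and 2.28-fold at the start, and in HKO the order was turned, 1.76-fold against 2.66-fold. In 409 genes with an internal exon peak the last exon peak was lower in 319, with a median difference of -0.70. The 258 genes with a 3' UTR peak as well showed a smaller difference of -0.23 (-0.42 to -0.10), and the last exon peak had the lower change in 161 (62.4%). Flox enrichment in these genes was 4.14-fold at the last exon and 3.55-fold at the 3' UTR peak. In HKO it was 1.94-fold and 2.13-fold. Over the whole classes the order was turned, with medians of -0.69 (-0.74 to -0.62) in members and -0.77 (-0.82 to -0.73) in 3' UTR peaks. The room to fall was unlike, since enrichment stays above 1. Flox enrichment was 2 or more in 79.4% of members and 81.4% of 3' UTR peaks. It was so in only 55.8% of first exon, 58.4% of 5' UTR and 59.9% of internal exon peaks. The differences within genes were not matched for flox enrichment.

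A pool of 1103 last exon peaks had at least 584 IP reads in sum (the members' median), 20 reads in each input and a named gene. Of these, 495 (44.9%) were lower and 2 (0.18%) higher. Without these filters, 46.2% of members on coding transcripts were lower and 1.58% higher, and of all peaks 24.3% and 6.25%. The 10 lowest changes ran from -3.16 to -2.52 on the log2 scale. All 10 lay on coding transcripts, where 2025 of all 2632 members did. The stop codon lay under 8, where 65.8% of members on coding transcripts covered it. Calls in flox alone numbered 8, where 34.6% of members on coding transcripts had them, and calls come from the same reads as the ranking. The peak of Stam, an adaptor of endosomal receptor sorting, held 523 IP and 57 input reads in flox and 139 IP and 136 input reads in HKO, so that enrichment went from 7.61-fold to 1.09-fold, a log2 change of -2.80 (-3.32 to -2.29). In Gprc5c, an orphan G protein-coupled receptor, there were 1040 IP and 134 input reads in flox and 241 and 247 in HKO, which left 1.04-fold enrichment (log2 change -2.64, -3.01 to -2.28). C1galt1, a galactosyltransferase of mucin-type O-glycans, had 842 and 94 reads in flox and 254 and 232 in HKO (-2.68, -3.08 to -2.28). In these genes HKO IP was at about the level of HKO input, and that was also so for Dynll1, a dynein light chain, and Mul1, a ubiquitin ligase of the mitochondrial outer membrane.

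Dynll1 shows the part of the input most plainly. Its IP reads stayed level, 446 in flox and 451 in HKO, while input went from 58 to 467 reads, a log2 input change of 2.69, and the enrichment change was -2.63 (-3.07 to -2.20). Selenoi, an ethanolamine phosphotransferase, went from 512 IP and 55 input reads to 179 and 159 (-2.69). Arhgef3, a guanine nucleotide exchange factor, kept some enrichment, with 1086 and 88 reads in flox and 408 and 242 in HKO, from 10.3-fold to 1.79-fold. Vps18, a subunit of a lysosomal tethering complex, did so too, from 10.5-fold to 1.83-fold. Input RPM was higher in HKO in all 10, by 0.58 to 2.69 on the log2 scale, and IP RPM lower in 9. Flox input held between 20 reads (D17H6S53E) and 134 (Gprc5c), and a ranking of this kind favours a low flox input.

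The 10 largest rises were smaller, from 0.84 to 1.23 on the log2 scale. Of these, 6 lay on coding transcripts, and the peaks of Cxcl1, Eif2s2, Ifi30 and Mir8114 were placed on noncoding transcripts. The Irf5 peak, in the gene of an interferon regulatory factor of myeloid cells, held 328 IP and 134 input reads in flox and 261 and 57 in HKO, which gave 2.05-fold and 4.81-fold enrichment (1.23, 0.73 to 1.73) with lower reads in both fractions. Cxcl1, a neutrophil chemokine, had 95 IP and 55 input reads in flox and 515 and 170 in HKO (1.16, 0.62 to 1.69), so both fractions were higher. The peak of Jdp2, a bZIP repressor, had 820 and 98 reads in flox and 1198 and 94 in HKO, with similar input reads (6.98-fold and 13.5-fold, log2 change 0.95, 0.52 to 1.37). Pdgfra, a growth factor receptor of stellate cells, rested on 22 and 20 input reads (9.30-fold and 18.4-fold). The peaks of Mrpl33, a protein of the mitochondrial ribosome, and Krtcap2, of the oligosaccharyltransferase complex, had almost no enrichment in flox, 1.03-fold and 1.05-fold, and 1.96-fold in HKO. The Mrpl33 peak was also listed with a second, predicted gene. Mir8114 lies within the gene Glul, whose reads it shares. Eif2s2, a translation initiation factor subunit, Entpd1, a cell surface ectonucleotidase, and Ifi30, a lysosomal thiol reductase, completed the 10, with log2 changes of 0.88, 0.88 and 0.84.

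The 8 highest flox enrichments among these peaks ran from 11.5-fold to 18.6-fold. They ended at unlike levels in HKO. Usp1, a deubiquitinase of DNA repair, went from 11.8-fold (1119 IP and 79 input reads) to 3.21-fold (394 and 130), and Herc2, a ubiquitin ligase, from 11.9-fold to 3.24-fold. Cmpk2, a nucleotide kinase induced by interferon, went from 13-fold to 4.31-fold. Rgs1, a regulator of G protein signalling in leukocytes, stayed at 12.3-fold (1092 and 74 reads) and 11.4-fold (2418 and 225), a log2 change of -0.11 (-0.50 to 0.29). Sema6a, a semaphorin, and Bambi, a decoy receptor of the TGF-beta family, had log2 changes of -1.18 and -0.74.

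Strong last exon peaks were looked at next. A set chosen for a high flox ratio favours lower values in HKO, since the same ratio is the base of the change, and the counts are a description. Of the 1100 members at least 4-fold enriched in flox, 700 (63.6%) were lower, beside 54.6% of all 3843 peaks chosen in this way. Among these 1100 members, 415 had under 2-fold enrichment left in HKO and 94 (8.55%) changed by no more than 0.25 on the log2 scale. Among the well-covered ones the 6 smallest changes were those shown by sequence above. Bmp2, a bone morphogenetic protein made by liver endothelium, held 2328 IP and 200 input reads in flox and 1606 and 172 in HKO, at 9.76-fold and 9.90-fold (0.02, -0.29 to 0.33). The long noncoding RNA Malat1 had 19971 and 3972 reads in flox and 16242 and 3995 in HKO, at 4.23-fold and 4.33-fold, the narrowest interval of the set (0.03, -0.04 to 0.10). Ifnar2, a subunit of the type I interferon receptor, stayed at 8.51-fold and 8.43-fold, and Ifit2, an antiviral protein, at 5.82-fold and 5.84-fold. Arhgap30, a GTPase-activating protein of blood cells, and Znrd1as made up the 6. The peaks of Malat1 and Ifnar2 were also listed with a second, predicted gene.

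**Figure D4:**
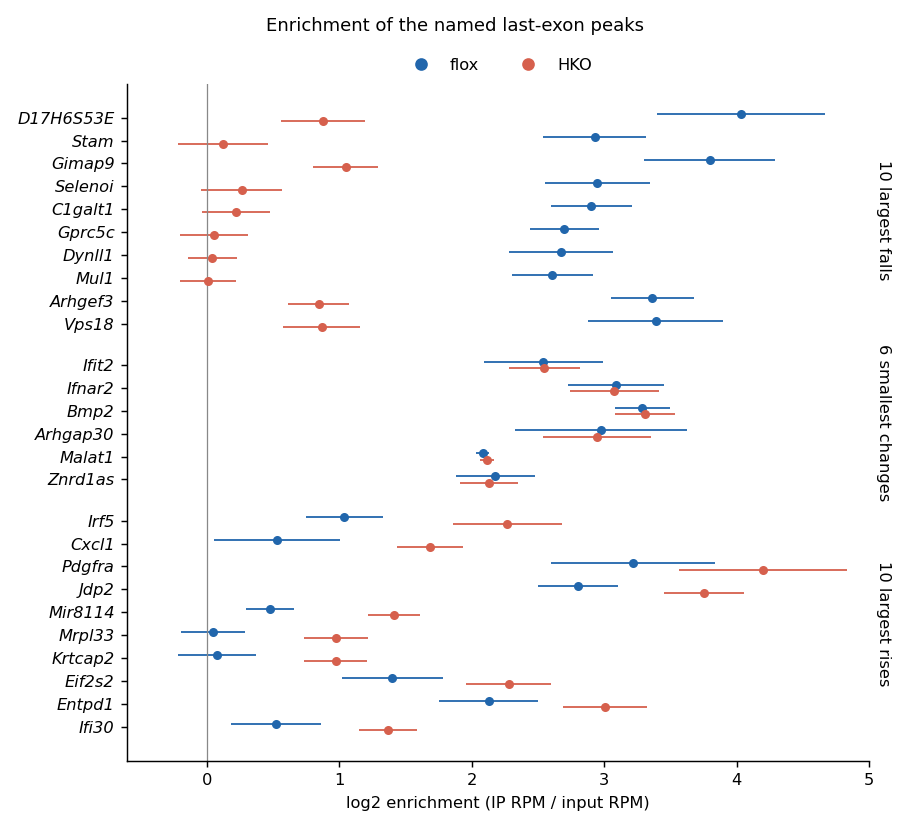
Log2 enrichment (IP RPM over input RPM, x axis) in flox and HKO of the last exon peaks with the 10 largest falls, the 6 smallest changes and the 10 largest rises; each point is 1 pair of IP and input libraries and bars 95% counting intervals. Flox and HKO intervals are apart for each of the 10 falls and lie on each other for the 6 smallest changes.

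Gene lists placed these peaks in liver biology. Their counts stand beside 37.8% lower among all members, 46.2% among members on coding transcripts and 24.3% among all peaks, and no list was tested against these shares. All 6 last exon peaks of insulin signalling genes were lower, with a median log2 change of -1.56, beside -0.69 over all members. Rictor, a core subunit of the second mTOR complex, had 471 IP and 52 input reads in flox and 130 and 64 in HKO, from 7.50-fold to 2.15-fold (-1.80, -2.40 to -1.21). Tsc1, a brake on the first mTOR complex, had 603 and 92 reads in flox and 213 and 141 in HKO (-1.77, -2.21 to -1.33). Phlpp1, an AKT phosphatase, changed by -1.70, Akt2, the main AKT kinase of liver, by -1.41 and Pik3ca, a catalytic subunit of PI3K, by -1.02. The input of these 6 peaks changed by -0.41 to 0.44 only. Of the 25 genes listed, 20 had a peak anywhere.

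Hepatocyte transcription factors had 8 members, of which 5 were lower and none higher, with a median of -1.64, where 46.2% of members on coding transcripts were lower. Cebpa, a single-exon gene that drives hepatocyte differentiation (peak on chromosome 7 from 35120225 to 35120880, across the stop codon), held 16195 IP and 2590 input reads in flox and 3812 and 3455 in HKO. Its enrichment went from 5.26-fold to 1.18-fold (-2.16, -2.25 to -2.07), with an input change of 0.12. Cebpb, a single-exon gene of the same family, held 18633 and 3855 reads in flox and 6566 and 5385 in HKO, from 4.07-fold to 1.30-fold (-1.65, -1.72 to -1.57). Thrb, a thyroid hormone receptor (-1.98), Rora, an orphan nuclear receptor (-1.88), and Foxa2, a pioneer factor (-1.62), were also lower. Onecut2 (-0.83) and Tcf7l2 (-0.70) were not, and the interval of Tcf7l2 reached 0.02.

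Immediate-early genes, which are transcribed within minutes of a stimulus, had 6 of 9 peaks lower, beside the same 46.2%, with a median of -1.51, and their inputs differed most. The input reads of these 9 peaks summed to 3681 in flox and 15616 in HKO. Myc held 786 IP and 80 input reads in flox and 1389 and 989 in HKO, an input change of 3.32 and an enrichment change from 8.18-fold to 1.5-fold (-2.45, -2.80 to -2.10). Junb (-1.81), Fosl2 (-1.77), Egr1 (-1.57), Fos (-1.51) and Gadd45g (-1.18) were lower too, and only Gadd45g had no higher input. Klf2, also a factor of endothelial cells, stayed at 9.13-fold (2006 and 184 reads) and 8.21-fold (2889 and 374), a log2 change of -0.15 (-0.42 to 0.11).

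Genes of the m6A system had 7 of 10 peaks lower, 5 of them in only 2 genes, where 46.2% of members on coding transcripts were lower. These lay in Rbm15 (2 peaks) and Rbm15b (3 peaks), adaptors that guide the writer complex, in Ythdf3, a cytoplasmic reader, and in Mettl16, a separate methyltransferase. Ythdf3 held 495 IP and 108 input reads in flox and 182 and 176 in HKO (-1.80, -2.22 to -1.38). The nuclear reader Ythdc1 held 449 and 110 reads in flox and 618 and 163 in HKO, a change of 0.24 (-0.15 to 0.63). Circadian genes had 4 of 8 peaks lower, close to that share, among them those of Rora, Bhlhe40 (-1.63) and Nfil3 (-1.16), and Dbp did not follow (0.30, -0.15 to 0.75) while its input changed by -3.56. Of 7 peaks of chaperone and endoplasmic reticulum stress genes, 3 were lower, also close to that share. These were the peaks of the stress kinase Eif2ak3 (-1.60), of Edem3 (-1.99) and of the chaperone Hspa5. Xbp1 (-0.83) and Hsp90b1 (-0.15, -0.32 to 0.03) were not lower. Both peaks of Atf4 went the other way (0.17, -0.04 to 0.38, and 0.67, 0.33 to 1.01). Hspa5 held 27352 and 5367 reads in flox and 13932 and 7191 in HKO (-1.06, -1.11 to -1.0).

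Metabolic genes were mixed. Ppara, the fatty acid sensing nuclear receptor, held 2667 IP and 365 input reads in flox and 450 and 318 in HKO, from 6.14-fold to 1.51-fold (-2.03, -2.29 to -1.77), and Cpt1a, the entry enzyme of mitochondrial fatty acid oxidation, 4163 and 1143 in flox and 1118 and 860 in HKO (-1.15, -1.30 to -0.99). The other 4 peaks of fatty acid oxidation genes were not lower, and 3 of them had flox enrichment under 2. Ppp1r3g, a glycogen-targeting phosphatase subunit, went from 5.40-fold to 1.24-fold (-2.13), and the nuclear receptors and transporters of sterol metabolism Nr0b2 (-1.82) and Abcg8 (-1.27) were lower, while Nr1h3 was not (-0.13, -0.39 to 0.12). Apoa5, a regulator of plasma triglyceride, held 72750 and 18764 reads in flox and 37785 and 33018 in HKO, from 3.26-fold to 1.22-fold (-1.42, -1.45 to -1.39). The Apoa5 peak was also listed with a second, predicted gene. Several other abundant liver transcripts had low enrichment in flox. Apoa1 had 1.59-fold enrichment in flox and Apoe 1.11-fold, 0 of 7 peaks of plasma protein genes and 0 of 3 of drug metabolism genes were lower, and 5 of those 7 and all of those 3 had flox enrichment under 2. The same held for the only lipogenesis peak, Elovl5 (1.38-fold).

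The remaining lists had 3 of 13 peaks lower for histone modifiers (Kat2a, -1.62; Kdm5a, -1.38; Nsd1, -1.08), 2 of 5, close to the share of all members, for ubiquitin-mediated proteolysis (Cblb, -1.54; Cul1, -1.40) and 0 of 3 for HIF-1 signalling. The HIF-1 peaks, in the coactivators Ep300 (-0.92) and Crebbp (-0.47) and the glucose transporter Slc2a1 (-0.93), all had negative changes. The Slc2a1 peak was also listed with a second, predicted gene. All 13 histone modifier peaks had flox enrichment above 2, with a median of 4.31-fold, and their median in HKO was 3.05-fold.

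Markers of Kupffer, endothelial and stellate cells, in which Alb-Cre does not act, were listed next, and their difference from the other lists was not tested. None of the 19 last exon peaks of Kupffer cell, endothelial and stellate markers was lower, 2 were higher and all 19 changes were positive, from 0.02 to 1.21, with 11 intervals wholly above 0, although 15 of the 19 had flox enrichment of 2 or more. The endothelial marker Eng, a co-receptor of the TGF-beta family, held 3969 IP and 527 input reads in flox and 3258 and 450 in HKO, at 6.33-fold and 7.70-fold (0.28, 0.09 to 0.48). Cdh5, the endothelial cadherin, held 1984 and 339 reads in flox and 2073 and 403 in HKO (0.15, -0.07 to 0.38). The median log2 change was 0.28 for the 7 endothelial peaks, 0.46 for the 5 Kupffer peaks and 0.87 for the 7 stellate peaks. Medians above 0 were not particular to these markers. They were 0.31 for all internal exon peaks, 0.37 for first exon peaks, 0.38 for 5' UTR peaks and 0.47 for pseudogene members. These sets hold many weak peaks. In their peaks with flox enrichment of 2 or more, the medians were -0.14, 0.12, 0.15 and 0.24 in that order. The marker peaks were not matched to them for flox enrichment. RPM is scaled to the library total, so 0 marks no change only relative to all reads. Whether m6A rose in these cells was not tested.

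In the Kupffer list C1qc, a complement subunit, held 1019 and 380 reads in flox and 2034 and 650 in HKO (0.56, 0.35 to 0.78), and Csf1r, the receptor of a macrophage growth factor, changed by 0.35 (0.13 to 0.57). Among stellate markers the collagen gene Col1a1 changed by 1.21 (0.46 to 1.97) and Hand2, a transcription factor of mesenchymal cells, by 0.73 (0.20 to 1.26). The inputs of the 19 peaks summed to 3031 reads in flox and 3701 in HKO, with single log2 changes from -1.19 (Ptprb) to 0.87 (Ptprc). The input was lower in HKO for all 7 endothelial peaks (median log2 input change -0.51), and higher for 4 of 5 Kupffer peaks (0.48) and 5 of 7 stellate peaks (0.37). The part of input and of cell composition in these values was not tested. Markers of bile duct cells and lymphocytes gave a mixed picture from few peaks. Cdh1, a cadherin of epithelial cells including hepatocytes, changed by -1.67 and Sox9 by 0.00 (-1.12 to 1.13), and among lymphocyte genes Gimap9 changed by -2.75 and Gimap4 by 0.53 (0.19 to 0.86).

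**Figure D5:**
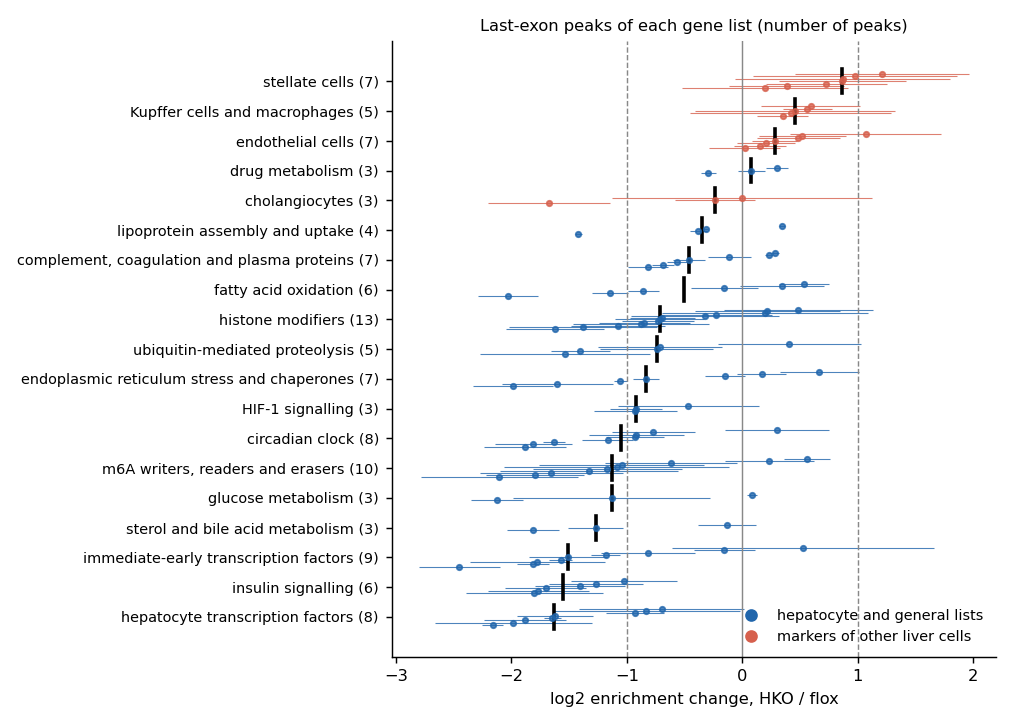
Log2 enrichment change, HKO over flox (x axis), of each last exon peak in the gene lists with at least 3 peaks, with the number of peaks in brackets; points are peaks with 95% counting intervals, black bars the list medians, dashed lines 2-fold changes. Markers of Kupffer, endothelial and stellate cells lie to the right of 0 and insulin signalling and hepatocyte transcription factor peaks to the left.

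Last exons with several peaks allowed a view inside 1 exon. In the 163 genes with 2 or more members the median spread between the highest and lowest log2 change was 0.59, it was 1 or more in 54 genes, and all peaks were lower in 32. The 4 peaks of Usf3, a bHLH transcription factor, lay at -4718, -3736, -1489 and -362 nt from the end of its coding sequence and changed by -0.87, -1.52, -1.28 and -1.80. The widest of them, nearest the stop codon, held 494 IP and 85 input reads in flox and 168 and 128 in HKO. In Plec, a cytolinker, 3 of 4 peaks were lower, by -2.03, -1.55 and -2.34, and the one farthest from the stop codon stayed at 2.77-fold and 2.72-fold (-0.03, -0.72 to 0.67). Gpatch8 had 5 peaks with changes of both signs, from -1.72 (-2.64 to -0.80) to 0.75 (0.11 to 1.38). Of the 5 peaks of Samd9l, an interferon-induced gene, the one with 10.6-fold flox enrichment was lower (-1.49, -2.22 to -0.76). That peak rested on 18 input reads in flox and 124 in HKO, with log2 changes of 2.42 in input RPM and 0.93 in IP RPM. The intervals of the other 4 included 0 at flox inputs of 6 to 34 reads.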

How the data were processed

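Poly(A)+ RNA of pooled livers was profiled by m6A immunoprecipitation in 4 libraries. By the submitters' processing notes, reads were checked with FastQC and the tools included HOMER, BWA (0.7.12-r1039) and MACS2 (2.1.0), on GRCm38; the study's methods give exomePeak as the caller instead. No source used here states strand. Read counts per peak were deposited by the authors without normalization. Their deposited RPM values are the count plus 1, scaled to the library total. Deposited enrichment, log2 change and closest-gene columns hold the authors' own comparison and were not used. Unused value columns of single samples numbered 0.

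The 14395 rows were reduced to 12815 distinct peaks. Enrichment was IP RPM over input RPM, and the 95% counting interval of its log2 change came from the 4 counts with 1 added (median standard error 0.24 in members). The median member held 317 IP and 83 input reads in flox, and 250 and 124 in HKO. Where no read was counted, up to 3 are allowed, or 0.163 to 0.200 RPM. Shares have exact (Clopper-Pearson) intervals and medians order-statistic intervals. Peaks were placed on GENCODE transcripts of the same build (2630 of 2632 members), with preference for a principal isoform holding 90% or more of the longest overlap, and positions refer to the middle of the exonic part. With 1 library per group no test was run and peaks were counted by a 2-fold rule.

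Named peaks were, among members at or above the median of 584 summed IP reads with at least 20 reads in each input and 1 peak per gene, without predicted genes, the 10 largest falls, 10 largest rises, 8 highest flox enrichments and 6 smallest changes at 4-fold flox enrichment or more, then up to 3 members of each of 21 gene lists with the most IP reads. Other list members, single-exon genes and genes with several peaks were named after their values were seen, and a few list members are counted but not reported here by name. The members and lists were chosen with earlier results of these data known. Alternatives covered the size of change, read minimums, gene sets, centring, motif and windows. The statistics were tested on simulated data. Scripts ran in Python 3.11.15 with pandas 2.3.3, numpy 2.4.6, matplotlib 3.10.9 and scipy 1.17.1.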

Additional observations from a re-analysis of the deposited data

How the results depend on the processing

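Of 45 alternative values, 24 stayed within the interval of the main value and 21 moved beyond it. Shares have no sign, so a change of direction could be seen only in the medians and differences, none of which changed sign. Limits are the single library per group, the read counts of flox input and the floor of enrichment at 1, under which weak peaks cannot be counted as lower. The share at least 2-fold lower (37.8%) became 44.8% in protein coding genes, 52.7% at 1.5-fold, 17.0% at 3-fold and 31.5% where input differed less than 1.5-fold, the last chosen after the data were examined. The share at least 2-fold higher (2.77%) became 0.695% at or above the median IP reads of all peaks, 1.81% with 20 reads in each input, 1.76% in protein coding genes, 11.2% at 1.5-fold and 0.570% at 3-fold. The median log2 change (-0.69) was -0.88 in protein coding genes and -0.55 with similar input. The share called in flox alone (30.4%) became 19.7% at or above the median IP reads, 28.1% with 20 reads in each input and 33.7% in protein coding genes. GGACT (47.8%) was found in 53.8% at or above the median IP reads, in 52.5% in protein coding genes and in 17.5% of the central 100 nt, and DRACH in 99.1%. The share near a stop codon (57.8%) became 35.5% within 100 nt, 75.4% within 400 nt and 79.3% when any base of the peak counted. Counting each gene once, taking any row labelled last exon, adding 5 to each count or centring on all peaks moved none of the values they were tried on beyond its interval, and neither difference within genes moved. No paired analysis was possible because each group had 1 library.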
